A study of Homo sapiens with 6 samples.

Results

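The polyamine metabolism genes described here are 10 genes that make, regulate or break down putrescine, spermidine and spermine: ODC1, SRM, SMS, AMD1, OAZ1, OAZ2, AZIN1, SAT1, PAOX and SMOX. They were chosen by gene symbol, as every deposited transcript whose symbol in the GENCODE 29 annotation was 1 of these 10. The rule found all 10 genes of 34500 in the tables, and 83 of 159239 matched transcripts. RNA had been sequenced from RPMI 8226, a human multiple myeloma cell line, in 3 libraries with a lentiviral shRNA against luciferase (shLuc, the control) and 3 with an shRNA against the histone deacetylase HDAC1 (shHDAC1). All 6 libraries came from cells grown in medium with 10% fetal bovine serum, carried a lentiviral vector and had been selected with puromycin for 48 h. The labels name no hairpin, say that transduction was done in triplicate, and do not say whether cultures were handled separately afterwards, so the p-values cover the spread among these libraries, which may be technical. The values are TPM, a transcript's length-corrected share of its library, summed over the transcripts of a gene to give its level, and they keep no record of sequencing depth.

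The targeted gene followed its labels. With shLuc HDAC1 stood at 90.0, 85.0 and 88.9 TPM, with shHDAC1 at 31.8, 27.0 and 29.2 TPM, so the groups did not overlap. Its log2 fold change was -1.56 ± 0.08 (SE, limma adjusted p = 2.2e-06). Of 9 plasma cell markers, 8 were at 1 TPM or more in every library. The summed level of all 9 was 8121 to 8935 TPM with shLuc and 6002 to 7259 TPM with shHDAC1. The 8 were all called lower in the test described below, from XBP1 (log2 fold change -0.21) to IRF4 (-1.10) and TNFRSF17 (-2.31, from 167 to 32.9 TPM). SLAMF7, the other marker, was below 1 TPM in every library and was not tested. It went the other way, at 0.05, 0.06 and 0.39 TPM with shLuc and 0.66, 0.52 and 0.96 TPM with shHDAC1. The B cell, T cell, myeloid and fibroblast markers summed to at most 2.32 TPM per list in any library. The epithelial markers summed to 78.6 to 93.7 TPM with shLuc and 74.4 to 83.2 TPM with shHDAC1, almost all of it EPCAM. The 8 called plasma cell markers thus moved with ODC1, SRM and AMD1, by up to 5.08-fold, and their part in the results was not tested. The correlation of log2 gene levels was 0.989 to 0.993 between libraries of the same group and 0.971 to 0.974 between groups. In bulk RNA such as this, fewer cells of a type and less RNA per cell cannot be told apart.

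Polyamines are small positively charged molecules that bind RNA, DNA and ribosomes and that proliferating cells make in large amounts. Ornithine decarboxylase (ODC1) makes putrescine, and spermidine synthase (SRM) and spermine synthase (SMS) add aminopropyl groups that come from S-adenosylmethionine decarboxylated by AMD1. The pathway holds itself in check: polyamines promote a frameshift that yields antizyme (OAZ1, OAZ2), antizyme binds ODC and sends it to the proteasome, and the antizyme inhibitor AZIN1, a relative of ODC without its activity, takes antizyme away. On the way down, SAT1 acetylates spermidine and spermine, PAOX oxidises the acetylated products, and SMOX oxidises spermine itself.

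A few sequences show where this regulation sits in the transcripts and genes measured here. The first is the antizyme frameshift site, where the ribosome meets a stop codon and moves on by 1 base. It is printed from GRCh38 for OAZ1 (chr19:2271428-2271457, plus strand) and OAZ2 (chr15:64691501-64691530, minus strand), both inside the coding sequence, and the capitals mark the last codon before the stop together with the stop codon.
OAZ1: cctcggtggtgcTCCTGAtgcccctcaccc
OAZ2: cctctgtggtgcTCCTGAtgcccctcaccc
The pair was identical at 29 of 30 bases. The stop codon followed 66 codons in the transcript OAZ1-202 and 32 codons in OAZ2-201. Gene-level TPM count RNA with this site whether or not a ribosome shifts on it, so the values below say nothing of frameshifting.

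Next is the cassette exon of SAT1-209, a SAT1 transcript annotated as processed, that is, without an annotated open reading frame. Inclusion of an internal exon with early stop codons in SAT1 is known as a polyamine-regulated switch that keeps the enzyme low. The exon lies at chrX:23784294-23784403 (GRCh38, plus strand), between exons of the coding transcript SAT1-204. Its first 30 bases (chrX:23784294-23784323) are printed, and the capitals mark the first stop codon in the frame of the SAT1-204 start.
SAT1-209 exon: gttacagtctcTAGcttcgccatgtacatg
With this exon the frame closed after 71 codons, against 171 codons in SAT1-204. The whole exon is 110 bases long, and parts of it also lie in exons of SAT1-202 and SAT1-206, so reads from it do not belong to SAT1-209 alone.

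The last is the E-box CACGTG, the letters bound by MYC and related factors, for which ODC1 is a textbook target. The stretches were read from the RefSeq promoter windows of GRCh38.p14, on the minus strand, with the E-boxes in capitals. The ODC1 stretch (chr2:10447963-10448120) lies in intron 1 of ODC1-201 and upstream of the start of ODC1-202, and its E-boxes are 256 and 222 bases before that start. Its window (chr2:10447963-10448262) does not reach the start of ODC1-202 at 10447780, so it belongs to another RefSeq start.
ODC1: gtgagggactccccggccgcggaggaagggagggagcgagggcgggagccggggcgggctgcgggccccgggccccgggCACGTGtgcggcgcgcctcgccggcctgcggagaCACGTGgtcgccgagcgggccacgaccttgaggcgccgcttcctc
The SRM stretch (chr1:11060158-11060268) holds 1 E-box, 188 bases before the start of SRM-201.
SRM: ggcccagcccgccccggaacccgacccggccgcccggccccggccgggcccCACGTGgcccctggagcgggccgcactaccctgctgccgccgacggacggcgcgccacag
The letters read the same on both strands. They were found in 2548 of 35116 windows of 300 bases (7.26%), each running from 250 bases before a start to 50 after it, and in at least 1 window of 8.77% of 27305 genes. Of the 7 members with a window, ODC1 and SRM held the letters, and AMD1, SMS, OAZ1, OAZ2 and SAT1 did not. Another ODC1 window (chr2:10448278-10448577), which spans the start of ODC1-201, held 0 E-boxes. A match describes the letters and is no measurement of binding, which was not tested.

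At the gene level, 4 of the 10 genes passed the test. SAT1 was higher with shHDAC1, ODC1, SRM and AMD1 were lower, and SMS, OAZ1, OAZ2, AZIN1, PAOX and SMOX did not pass. The test was limma on log2(TPM + 1). It covered the 11857 genes that reached 1 TPM in 3 or more libraries, its p-values were adjusted over all of these by Benjamini-Hochberg, and the threshold was 0.05. All 10 members passed the filter. Over all genes tested, 16.9% were called higher and 10.3% lower, beside which 1 of 10 higher and 3 of 10 lower stand as a description of a short list. The median log2 fold change was -0.05 over the members and 0.07 over all genes tested. In 5 members (SAT1, ODC1, SRM, AMD1 and SMOX) the groups did not overlap, and 43.3% of all genes tested showed such a separation.

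**Figure D1:**
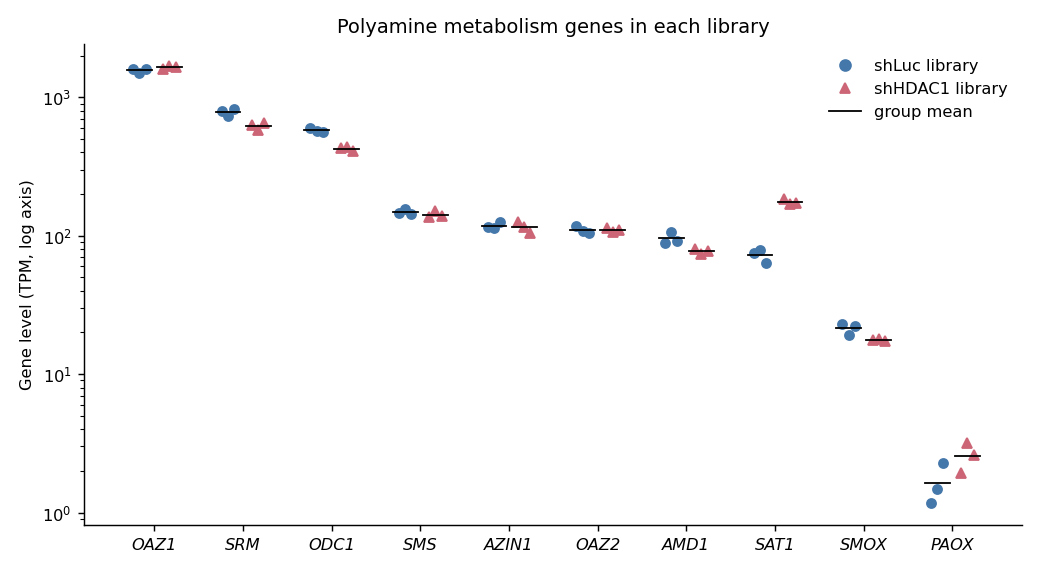
Gene level in TPM on a log axis for the 10 polyamine metabolism genes in each of the 3 shLuc (circles) and 3 shHDAC1 (triangles) libraries, with bars for the group means. SAT1 sits at 63.9 to 78.5 TPM with shLuc and at 168 to 183 TPM with shHDAC1, while ODC1, SRM, AMD1 and SMOX have all 3 shHDAC1 libraries below the shLuc libraries.

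Of the enzymes of synthesis, ODC1 catalyses the committed step. Its level was 595, 574 and 563 TPM with shLuc and 429, 434 and 407 TPM with shHDAC1. All 3 shHDAC1 libraries lay below all 3 controls, and the lowest control was above the highest shHDAC1 library by more than the range within either group. ODC1 fell from 577 ± 16.2 to 423 ± 14.7 TPM (SD, n = 3), and the log2 fold change was -0.45 ± 0.05 (SE, limma adjusted p = 4.2e-04, 95% confidence interval -0.57 to -0.33). The gene is ENSG00000115758.12, at chr2:10439968-10448504 of GRCh38 on the minus strand.

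SRM, which turns putrescine into spermidine, was the second most abundant member. It stood at 793, 729.5 and 826 TPM with shLuc and at 627, 580.1 and 647 TPM with shHDAC1. Replicate 2 was the lowest library in both groups, and the groups did not overlap. SRM (ENSG00000116649.9, chr1:11054584-11060024, minus strand) fell from 783 ± 49.1 to 618 ± 34.3 TPM, with a log2 fold change of -0.34 ± 0.07 (SE, limma adjusted p = 0.0051).

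AMD1 supplies the aminopropyl donor for both synthases. Its level was 88.6, 107 and 91.0 TPM with shLuc and 80.3, 73.7 and 77.3 TPM with shHDAC1. The highest library was shLuc replicate 2 and the lowest shHDAC1 replicate 2, and the groups did not overlap. AMD1 (ENSG00000123505.15, chr6:110874770-110895713, plus strand) fell from 95.5 ± 9.98 to 77.1 ± 3.31 TPM, with a log2 fold change of -0.30 ± 0.08 (SE, limma adjusted p = 0.028). The call rested on few libraries: leaving out shLuc replicate 2 gave an adjusted p of 0.074, and leaving out shHDAC1 replicate 2 or 3 gave 0.065. It was also lost when only protein-coding transcripts were summed (log2 fold change -0.19, adjusted p = 0.067) and with no filter on low values (adjusted p = 0.078).

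SMS, the last enzyme of synthesis, did not pass. It was at 147, 155 and 144 TPM with shLuc and at 138, 149.8 and 138.7 TPM with shHDAC1, with overlapping groups. The log2 fold change was -0.07 ± 0.06 (SE, limma adjusted p = 0.48), and its 95% interval ran from -0.21 to 0.08. The gene is ENSG00000102172.15, at chrX:21940573-21994835 on the plus strand. Within each library, the SRM to SMS ratio was 5.41, 4.70 and 5.72 with shLuc and 4.56, 3.87 and 4.66 with shHDAC1. The lowest control ratio lay just above the highest shHDAC1 ratio.

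None of the 3 regulators of ODC protein passed the test. OAZ1, the main antizyme, was the most abundant member at 1592, 1493 and 1606 TPM with shLuc and 1590.02, 1687 and 1653 TPM with shHDAC1. The groups overlapped, and the log2 fold change was 0.07 ± 0.05 (SE, limma adjusted p = 0.34, 95% interval -0.04 to 0.19). With each library centred on its median it was -0.03, so its direction is not settled by these data. OAZ1 (ENSG00000104904.12, chr19:2269509-2273490, plus strand) shares exonic positions with JSRP1 on the opposite strand, which was listed at 213, 204 and 222 TPM with shLuc and 139, 127 and 145 TPM with shHDAC1. The labels do not say whether reads were assigned by strand, and without strand the pair cannot be told apart where they overlap.

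OAZ2, the second antizyme, was at 117, 108 and 104 TPM with shLuc and 115, 107 and 109 TPM with shHDAC1. The log2 fold change was 0.01 ± 0.07 (SE, limma adjusted p = 0.91, 95% interval -0.14 to 0.17), and it was -0.09 with median centring. AZIN1 was at 115, 113 and 125 TPM with shLuc and 126, 116 and 105 TPM with shHDAC1. Its log2 fold change was -0.03 ± 0.08 (SE, limma adjusted p = 0.81, 95% interval -0.22 to 0.15), and it was 0.01 over protein-coding transcripts alone. The groups overlapped for both genes, and the intervals are what bounds a change that was not called. Antisense genes share exonic positions with OAZ2 and AZIN1, and they had no matched value here.

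Ratios between members were also taken within each library, where they do not depend on library scaling. The ODC1 to OAZ1 ratio was 0.374, 0.384 and 0.351 with shLuc and 0.270, 0.258 and 0.246 with shHDAC1, a difference of -0.52 on the log2 scale. The ODC1 to AZIN1 ratio was 5.16, 5.08 and 4.51 with shLuc and 3.40, 3.76 and 3.89 with shHDAC1, a difference of -0.42. Every control library was above every shHDAC1 library in both ratios. Against SAT1 the gap was wider: ODC1 to SAT1 was 7.98, 7.31 and 8.81 with shLuc and 2.34, 2.58 and 2.37 with shHDAC1, a difference of -1.72. The SRM to SMS ratio given above differed by -0.27. An exact two-sided permutation test of 3 libraries against 3 cannot go below 0.1, and each of the 4 ratios reached that value (adjusted over the 4, 0.1), so none could pass.

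Of the enzymes of breakdown, SAT1 showed the largest change of the 10 genes in the test on deposited values. It catalyses the rate-limiting acetylation of spermidine and spermine. Its level was 74.6, 78.5 and 63.9 TPM with shLuc and 183, 168 and 171 TPM with shHDAC1. The groups were far apart: the lowest shHDAC1 library was above the highest control by more than the range of either group. SAT1 (ENSG00000130066.16, chrX:23783173-23786226, plus strand) rose 2.41-fold, from 72.3 ± 7.57 to 174 ± 8.08 TPM. The log2 fold change was 1.26 ± 0.09 (SE, limma adjusted p = 1.4e-05, 95% interval 1.07 to 1.45).

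SMOX, spermine oxidase, had groups that did not overlap but did not pass the test. It was at 22.9, 19.3 and 22.3 TPM with shLuc and at 17.6, 18.03 and 17.3 TPM with shHDAC1. The shHDAC1 libraries were close to each other, and shLuc replicate 2 was the control nearest to them. The log2 fold change was -0.27 ± 0.10 (SE, limma adjusted p = 0.072). Of the alternatives, 4 gave a call: median centring (-0.37, adjusted p = 0.026), quantile normalization (-0.37, adjusted p = 0.025), leaving out shLuc replicate 2 (-0.34, adjusted p = 0.044), and protein-coding transcripts alone (-0.35, adjusted p = 0.023). The gene is ENSG00000088826.17, at chr20:4120980-4187747 on the plus strand.

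PAOX, the oxidase of acetylated polyamines, was the least abundant member. It was at 1.17, 1.48 and 2.27 TPM with shLuc and 1.92, 3.17 and 2.61 TPM with shHDAC1, and the groups overlapped. The log2 fold change was 0.44 ± 0.20 (SE, limma adjusted p = 0.14). Hardly any of this was coding RNA: protein-coding transcripts were listed at 0 in 5 libraries and made up 3.97% of the gene in shLuc replicate 3. PAOX (ENSG00000148832.15, chr10:133379234-133391694, plus strand) also shares exonic positions with AL360181.3 on its own strand, which was at 4.97, 5.41 and 5.50 TPM with shLuc and 2.79, 1.23 and 4.17 TPM with shHDAC1. How reads were divided between these 2 genes was not tested.

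**Figure D2:**
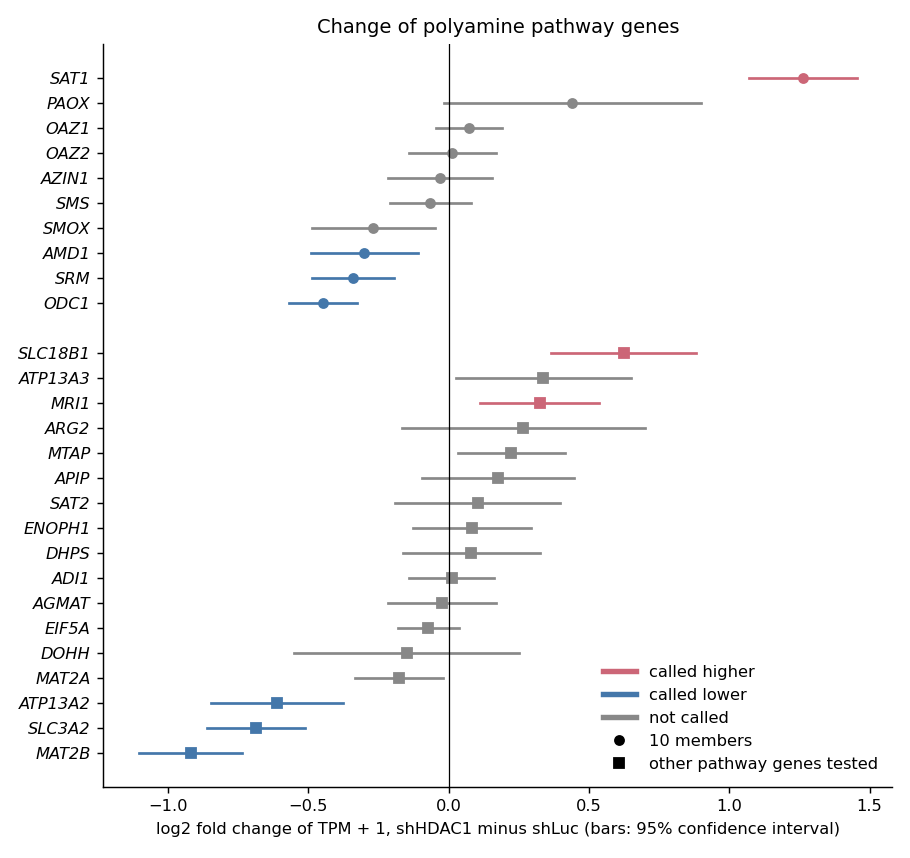
Log2 fold change of TPM + 1 (shHDAC1 minus shLuc) with its 95% confidence interval for the 10 members (circles) and the 17 other pathway genes that passed the filter (squares), coloured by the call. SAT1 stands alone at 1.26 among the members, the interval of ODC1 runs from -0.57 to -0.33, and the intervals of SMS, OAZ1, OAZ2, AZIN1 and PAOX include 0.

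TPM are corrected for transcript length, so the order of levels between genes can be read within a group. With shLuc it was OAZ1, SRM, ODC1, SMS, AZIN1, OAZ2, AMD1, SAT1, SMOX and PAOX. AZIN1 and OAZ2 overlapped in range, as did OAZ2 and AMD1, and each other neighbour in the order lay above the next in all libraries. With shHDAC1, SAT1 moved from the eighth place to the fourth, above SMS in every library (168 TPM at its lowest against 149.8 TPM for SMS at its highest). There the ranges of AZIN1 and OAZ2 alone overlapped between neighbours.

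The transcripts behind these sums were tested in the same way over 39716 transcripts. Of the 83 transcripts of the 10 genes, 17 were at 0 in every library and 42 passed the filter. SAT1 supplied all 4 that were called higher, and 3 were called lower, ODC1-201, ODC1-202 and SRM-201. Over all transcripts tested, 1.83% were called higher and 1.51% lower. TPM of overlapping transcripts are estimates that share reads, and how the reads were divided was not tested.

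**Figure D3:**
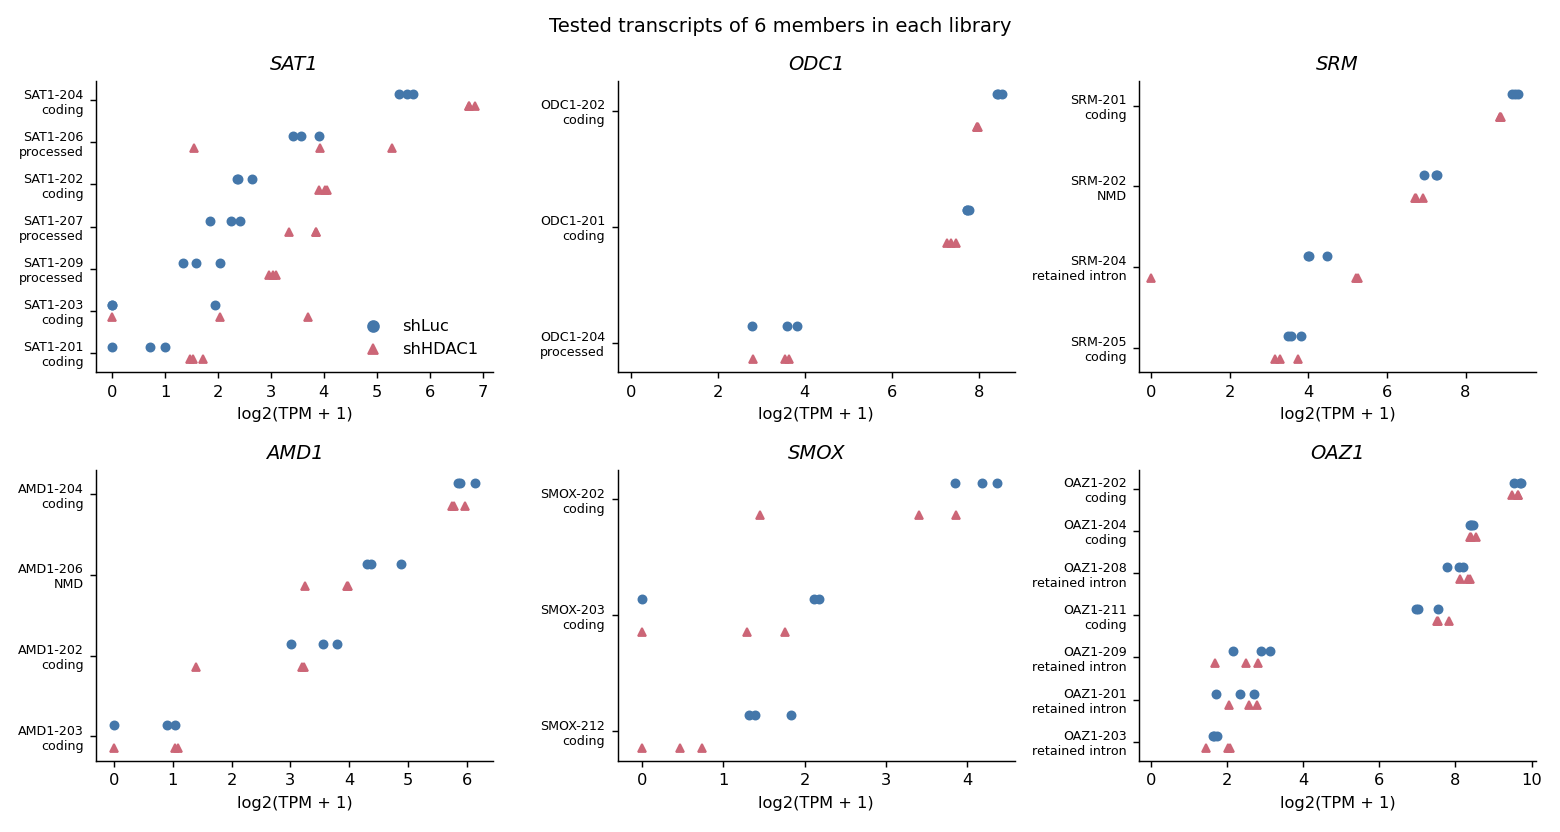
Level of each tested transcript of SAT1, ODC1, SRM, AMD1, SMOX and OAZ1 in each library, on a log2(TPM + 1) scale, for shLuc (circles) and shHDAC1 (triangles), with the annotated kind of transcript under its name. The 4 called SAT1 transcripts (SAT1-202, SAT1-204, SAT1-207 and SAT1-209) shift to the right together, and 1 shHDAC1 library stands apart in SAT1-206, SRM-204, SMOX-202 and AMD1-202.

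SAT1-204, the main coding form, was at 46.7, 50.3 and 41.9 TPM with shLuc and 107, 115 and 107 TPM with shHDAC1 (log2 fold change 1.23 ± 0.09, limma adjusted p = 0.0033). SAT1-202, another form annotated as coding, was at 4.13, 4.23 and 5.24 TPM against 15.7, 14.0 and 15.3 TPM (1.53 ± 0.13, adjusted p = 0.0061). Both rose with groups far apart. SAT1-202 ends at chrX:23784411, just after the cassette exon, whereas SAT1-204 runs to chrX:23786226. Whether SAT1-202 yields the enzyme was not tested. SAT1-209, the form with the printed cassette exon, was at 2.01, 3.10 and 1.52 TPM against 7.51, 6.84 and 7.19 TPM (1.38 ± 0.22, adjusted p = 0.034). SAT1-207, a processed form, was at 3.78, 2.62 and 4.36 TPM against 13.5, 9.16 and 13.5 TPM (1.51 ± 0.23, adjusted p = 0.029). SAT1 forms annotated as coding and as processed were thus both called, and of unequal stability. SAT1-204 and SAT1-202 kept their calls in all 6 fits that left out 1 library. The processed SAT1-207 lost its call in all 6 (adjusted p = 0.057 to 0.11), SAT1-209 in all but the fit without shLuc replicate 2 (0.091 to 0.13 in the others), and both lost it with no filter on low values (0.078). With replicate number as a block in the fit, SAT1-204 kept its call (limma adjusted p = 0.031). SAT1-202 lost its call there (0.054), as did SAT1-207 (0.057) and SAT1-209 (0.11).

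The share of SAT1 in coding forms was 73.3, 70.3 and 73.8% with shLuc and 67.8, 79.6 and 79.6% with shHDAC1, and the groups overlapped. SAT1-206, a processed form, was at 14.0, 9.74 and 10.8 TPM with shLuc and at 38.0, 1.92 and 14.2 TPM with shHDAC1. SAT1-205, a processed form not tested, was at 7.87 TPM in shLuc replicate 2 and 16.5 TPM in shHDAC1 replicate 2, and at most 0.08 TPM elsewhere. No shift between SAT1 forms was called: relative to the rest of the gene, SAT1-209 differed by 0.13 ± 0.26 and SAT1-204 by -0.05 ± 0.20 on the log2 scale (SE, limma adjusted p = 0.92 and 0.96).

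ODC1 consisted almost wholly of 2 coding transcripts, both called lower. ODC1-202 was at 371, 344 and 345 TPM with shLuc and 253, 247 and 248 TPM with shHDAC1 (log2 fold change -0.50 ± 0.05, limma adjusted p = 0.011). ODC1-201 was at 211, 219 and 212 TPM against 163, 176 and 152 TPM (-0.38 ± 0.07, adjusted p = 0.046). The ODC1-201 call was lost with quantile normalization (0.069), with no filter (0.11), with the replicate block (0.09) and in all 6 fits that left out 1 library (0.062 to 0.15). ODC1-202 lost its call in 5 of those 6 (0.053 to 0.061) and with the replicate block (0.052), and kept it without shLuc replicate 2 (0.042). The E-boxes printed above lie upstream of the start of ODC1-202 and downstream of the start of ODC1-201. ODC1-204, a processed form, stood at 13.2, 11.04 and 5.87 TPM with shLuc and 11.4, 10.7 and 6.04 TPM with shHDAC1, with overlapping groups.

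SRM-201, the main coding form, was at 610.0, 582 and 643 TPM with shLuc and 471, 468 and 481 TPM with shHDAC1 (log2 fold change -0.37 ± 0.05, limma adjusted p = 0.026). That call was lost in all 6 fits that left out 1 library (0.056 to 0.12), with no filter (0.076) and with the replicate block (0.073). SRM-202, annotated as a target of nonsense-mediated decay (NMD), a pathway that degrades RNA with early stop codons, was at 155, 122 and 151 TPM against 106, 104 and 121 TPM. It had a similar fold change that did not pass (-0.36 ± 0.11, adjusted p = 0.17). SRM-204, annotated as a retained intron, was at 15.2, 14.9 and 21.3 TPM with shLuc and at 37.4, 0 and 36.2 TPM with shHDAC1. The 0 was in shHDAC1 replicate 2, and no direction can be read from it.

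AMD1 and SMOX were the members whose coding share did not overlap between groups, a separation seen in 12.3% of the 8986 tested genes with both coding and other forms. In AMD1 it was 75.8 ± 2.93% with shLuc and 81.7 ± 4.86% with shHDAC1, and in SMOX 98.7 ± 1.21% and 92.9 ± 3.72% (SD, n = 3). AMD1-204, the main coding form, was at 58.0, 69.5 and 56.4 TPM with shLuc and 54.2, 61.6 and 52.7 TPM with shHDAC1, with overlapping groups (log2 fold change -0.12 ± 0.11, limma adjusted p = 0.63). AMD1-206, a short form annotated as an NMD target (chr6:110892825-110894061, within the span of the last exons of AMD1-204), was at 18.8, 28.3 and 19.7 TPM against 14.7, 8.55 and 14.6 TPM, without overlap (-0.79 ± 0.26, adjusted p = 0.19). Of the difference of -18.4 TPM in the AMD1 mean, -9.69 TPM was in AMD1-206, -5.13 TPM in AMD1-204 and -4.20 TPM in the coding AMD1-202. Without shHDAC1 replicate 2 the order turned, with -7.66 TPM in AMD1-206 and -7.86 TPM in AMD1-204. Without shLuc replicate 2, AMD1-204 differed by -1.03 TPM and AMD1-206 by -6.66 TPM. These leave-one-out differences were added after the data were seen.

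The NMD-annotated share of AMD1 was 21.7, 26.5 and 22.2% with shLuc and 19.6, 11.6 and 19.9% with shHDAC1, and the groups did not overlap. Such a separation of the NMD share was found in 11.0% of the 4429 tested genes with NMD-annotated and other forms. The NMD-annotated share of the whole library was also lower with shHDAC1 without overlap, at 5.44, 5.40 and 5.37% against 5.27, 5.31 and 5.29%, and its part in the AMD1 value was not tested. The extremes in AMD1 were replicate 2 of each group. Relative to the rest of the gene, AMD1-206 differed by -0.61 ± 0.28 on the log2 scale (SE, limma adjusted p = 0.64), and by -0.37 without shHDAC1 replicate 2. The retained-intron forms AMD1-207 and AMD1-208 were below 1 TPM in every library and were not tested.

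Across the 10 genes, no transcript shifted against the rest of its gene at the threshold. This balance test called 0 of 41 member transcripts, with 1 (SMOX-212) at an unadjusted p below 0.05. Over all transcripts so tested it called 0.0488% (18 of 36879) and put 8.3% at an unadjusted p below 0.05, so it made few calls anywhere. In simulated data it also missed most shifts of known size, so the lack of a call does not show that isoforms kept their balance. SMOX-212, a minor coding form, was at 1.48, 1.63 and 2.55 TPM with shLuc and 0, 0.39 and 0.67 TPM with shHDAC1 (balance -0.94 ± 0.32, limma adjusted p = 0.54). SMOX-202, the main form, was at 17.2, 13.4 and 19.6 TPM with shLuc and 9.58, 1.74 and 13.6 TPM with shHDAC1. SMOX-205, another coding form, was listed at 3.64, 13.6 and 0.11 TPM with shHDAC1 and at most 0.16 TPM with shLuc, so shHDAC1 replicate 2 was low in the first and high in the second.

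OAZ1 had the largest retained-intron share of the members. OAZ1-208, the main such form, was at 273, 217 and 293 TPM with shLuc and 333, 277 and 323 TPM with shHDAC1 (log2 fold change 0.26 ± 0.13, limma adjusted p = 0.38). OAZ1-202, the main coding form, was at 823, 746 and 837 TPM against 721, 801 and 797 TPM. Both overlapped between groups. Retained-intron forms made up 17.4 ± 1.87% of OAZ1 with shLuc and 19.7 ± 2.43% with shHDAC1 (SD, n = 3), also with overlap.

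The transcript calls were less stable than the gene calls. In most simulated data sets the transcript fit made false calls above its nominal rate, which bears most on the calls near the threshold (SRM-201, SAT1-207, SAT1-209 and ODC1-201, at 0.026 to 0.046). Leaving out 1 library left 2 member transcripts called higher (3 without shLuc replicate 2) and 0 called lower (1 without shLuc replicate 2), with 4 to 7 lower at an unadjusted p below 0.05 in limma. With no filter on low values, 2 were called higher and 1 lower. The fold changes of these transcripts kept their signs. Calls over all transcripts fell too, from 726 higher and 598 lower in the fit with all libraries. Leaving out 1 library gave 131 to 278 higher and 61 to 174 lower, and no filter gave 321 and 269 of 103014.

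**Figure D4:**
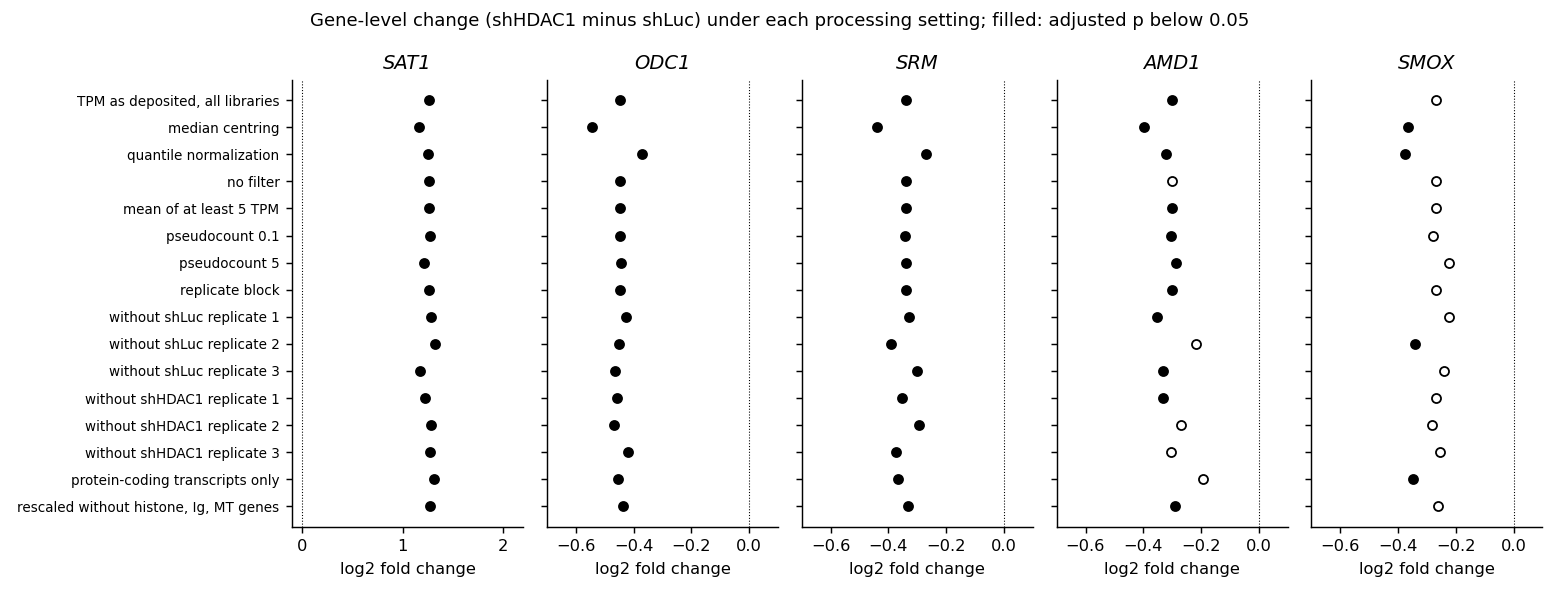
Gene-level log2 fold change (shHDAC1 minus shLuc) of SAT1, ODC1, SRM, AMD1 and SMOX under the deposited scaling and 15 alternatives, with filled points for an adjusted p below 0.05 and a dotted line at 0. SAT1, ODC1 and SRM are filled throughout, AMD1 is open in 5 alternatives and SMOX is filled in 4.

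Around these enzymes, 23 other genes of the pathway were followed: paralogs, the hypusine enzymes that use spermidine to modify EIF5A, substrate supply, methionine salvage and transport. All 23 were matched and 17 passed the filter. Of these, 2 were called higher and 3 lower, beside 16.9% and 10.3% of all genes tested, and the median over the 17 was 0.08 on the log2 scale against 0.07 over all genes. The 6 not tested were OAZ3, AZIN2, SATL1, EIF5A2, ARG1 and SLC12A8.

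In substrate supply, MAT2B, the regulatory subunit of the enzyme that makes S-adenosylmethionine, was at 74.9, 77.8 and 68.9 TPM with shLuc and 37.3, 41.5 and 37.0 TPM with shHDAC1. It fell by 0.92 ± 0.08 on the log2 scale (limma adjusted p = 7.2e-05). MAT2A, the catalytic subunit, was at 215, 218 and 211 TPM with shLuc and 208, 179 and 183 TPM with shHDAC1 and did not pass (-0.18 ± 0.07, adjusted p = 0.090). ARG2 and AGMAT, which lead to ornithine and putrescine, were not called.

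Among transport genes, SLC3A2, the heavy chain of amino acid transporters that has also been linked to polyamine export, was at 303, 311 and 314 TPM with shLuc and 204, 170.0 and 204 TPM with shHDAC1. It fell by 0.69 ± 0.08 on the log2 scale (limma adjusted p = 3.1e-04). ATP13A2, a lysosomal polyamine exporter, was at 49.7, 44.3 and 56.1 TPM against 35.1, 29.95 and 31.9 TPM and fell by 0.61 ± 0.10 (adjusted p = 0.0027). SLC18B1, a vesicular polyamine transporter, was at 9.17, 11.8 and 10.6 TPM against 17.3, 17.0 and 15.7 TPM and rose by 0.62 ± 0.12 (adjusted p = 0.0042). The groups did not overlap in any of these 3 genes. ATP13A3 was not called (0.34 ± 0.14, adjusted p = 0.10).

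In methionine salvage, which recycles the by-product of both aminopropyl transfers, 1 of 5 genes was called. MRI1, an isomerase of this route, was at 14.7, 13.5 and 15.1 TPM with shLuc and 18.1, 17.9 and 19.0 TPM with shHDAC1, with a log2 fold change of 0.32 ± 0.09 (limma adjusted p = 0.032). That call was lost with median centring (0.23, adjusted p = 0.10), with quantile normalization (0.21, adjusted p = 0.13), and on leaving out any of shLuc replicates 1, 2 and 3 or shHDAC1 replicates 1 and 3. MTAP, which starts salvage, did not pass (0.22 ± 0.09, adjusted p = 0.081).

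None of the 3 tested hypusine genes was called, and neither was the acetyltransferase paralog SAT2. EIF5A, the protein that carries hypusine, was at 1221, 1200 and 1169 TPM with shLuc and 1142, 1168 and 1105 TPM with shHDAC1 (log2 fold change -0.07 ± 0.05, limma adjusted p = 0.31). Its groups lay next to each other without overlap. DHPS and DOHH, the enzymes that build hypusine, overlapped between groups (adjusted p = 0.62 and 0.57).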

How the data were processed

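Total RNA had been made into libraries with the NEBNext Ultra RNA kit, according to the labels' protocols. The authors deposited 1 table of TPM per library, for 173259 Ensembl transcripts and summing to 1000000. STAR, DESeq and hg19 stand in the submitters' processing notes without version or role. Which program and annotation produced the TPM is not given in the sources at hand. TPM carry no counts, so depth is unknown and the number of libraries limits the precision.

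Identifiers were matched without version to GENCODE 29 on GRCh38 (159239, 91.9%), which gave symbols, coordinates and transcript kinds. Gene levels are sums of TPM. limma 3.58.1 (R 4.3.3, trended variance) was fitted to log2(TPM + 1), computed here from the deposited TPM, for genes, for transcripts, and for each transcript against the rest of its gene (the balance, pseudocount 1). A feature needed 1 TPM in at least 3 libraries, and adjustment ran over all features tested. The fits were tested on simulated data, in which the transcript-level fit mostly made false calls above its nominal rate and the balance fit recovered few shifts. Alternatives changed the scaling, filter, pseudocount, summed transcripts, replicate block and libraries. Members and lists were chosen with earlier results of these data known; all members and all called genes of the pathway list are named.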

Additional observations from a re-analysis of the deposited data

How the results depend on the processing

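SAT1, ODC1 and SRM kept their direction and their call in all 15 alternatives, and so did HDAC1. For single genes and transcripts, 346 recomputed values kept direction and side of the threshold, 51 lost a call, 4 gained one and 9 changed sign. Of the counts of calls, 20 differed from the reported count by over 1.5 times and 88 were within it. Median centring turned OAZ1 (-0.0261) and OAZ2 (-0.0852), protein-coding transcripts alone turned AZIN1 (0.0142), and a pseudocount of 5 turned the balance of SAT1-209 (-0.44), and all these were uncalled. Leaving out 1 library, OAZ2 ranged from -0.0241 to 0.0606, AZIN1 from -0.0973 to 0.0372 and the SAT1-204 balance from -0.216 to 0.0947. Members called lower ranged from 2 to 4 over all alternatives. Other pathway genes called higher numbered 1 with median centring, 1 with quantile normalization and 1 to 2 without 1 library, but 3 with protein-coding transcripts alone. Without shLuc replicate 2 MTAP, and without shHDAC1 replicate 3 ATP13A3, passed in place of MRI1. Member transcripts called higher were 2 with no filter and 2 to 3 without 1 library, and those called lower were 1 and 0 to 1. Calls over all transcripts fell under these settings too, as given above. Leaving out a library removes samples, and for the other changes the cause was not tested. Calls over all genes were 62.2% higher as deposited, 42.2% with median centring and 47.0% with quantile normalization. Deviations from the group mean correlated at -0.10, 0.18 and 0.03 between same-numbered replicates 1, 2 and 3. Between unlike numbers the correlations ran from -0.165 to 0.146, so the replicate 2 pair was the highest of all. Whether same-numbered libraries share a batch was not tested. With the replicate block, member transcripts called higher were 1 and lower 0 in limma (7 lower at an unadjusted p below 0.05), and member genes 1 and 3. Over all 39716 transcripts the block left 114 called higher and 79 lower, against 726 and 598 without it. Over all genes it gave 1979 higher and 1264 lower, against 2007 and 1219. Not every sample correlated best with its own number.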
